A study of Mus musculus with 36 samples.

Results

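The 10 genes described here mark cone photoreceptors or act in them: Opn1sw, Gnat2, Gnb3, Pde6h, Pde6c, Arr3, Thrb, Rxrg, Kcne2 and Ccdc136. They were taken by gene symbol from a table of 15289 genes, which held exactly 1 row for each. Their levels were followed in 33 RNA-seq libraries from mouse fibroblasts, from fibroblasts under chemical conversion towards photoreceptors, and from rods isolated from postnatal retina.

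All groups carried the Nrl-GFP strain genotype, in which the promoter of Nrl, a rod transcription factor, drives a green fluorescent reporter. Per the labels, cells were sorted by expression of a promoter reporter. The fibroblasts were mouse embryonic fibroblasts at passage 2 (MEF, n = 3). MEF were exposed to 5 chemicals, not named in the labels, in a photoreceptor induction medium, and intermediates were taken on day 5 (n = 3) and day 8 (n = 3). The reprogrammed cells, abbreviated CiPC, were taken on day 11 (n = 3). Rods were isolated at postnatal day (P) 2 (n = 2), P4 (n = 2), P5 (n = 3), P6 (n = 3), P10 (n = 4), P14 (n = 3) and P28 (n = 4). The labels tie 16 of the rod libraries, from P2, P4, P6, P10, P14 and P28, to an older series, while P5 rods belong with the cultured cells. Rods of P3 were not analysed here. P10 replicate 3 and P14 replicate 3 carry no such tie. The labels do not say if the replicates of a group were separate cultures or separate animals, and p-values here measure only the spread between libraries, which may be technical.

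Cones are the photoreceptors of daylight and colour vision. Light activates a cone opsin, the opsin activates transducin, transducin relieves an inhibitory subunit from a phosphodiesterase, and the fall in cyclic GMP closes the cation channels of the outer segment. Arrestin then shuts the opsin off. Rods run the same cascade with their own paralogs, and the rod factors Nrl and Nr2e3 are known for holding cone genes low in rods. Most mouse cones co-express a short-wave and a middle-wave opsin, and thyroid hormone receptor beta with its partner retinoid X receptor gamma patterns which opsin dominates.

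Upstream sequence was at hand for 8 of the 10 genes, in 14 windows of 250 bases that end at a RefSeq transcript start (GRCm38.p6). Ccdc136 has 4 such windows, Rxrg, Thrb and Kcne2 have 2 each and the other genes 1. A set of 4 is printed, 5′ to 3′ on the gene's strand. Opn1sw and Pde6h are shown because their levels followed each other over the groups (r = 0.965 over 11 group means), and Arr3 and Kcne2 because, among the rod ages other than P5, their lowest level lay at P2. Thrb shared that minimum, but its windows hold exons of the gene and are not printed. Capitals mark matches on either strand to GATTA (reverse TAATC, the core bound by the homeobox factors Crx and Otx2), AGGTCA (reverse TGACCT, a nuclear receptor site) or TGCTGA (reverse TCAGCA, part of a Maf response element, the kind of site Nrl binds).
Opn1sw, chr6:29380514-29380763, minus strand: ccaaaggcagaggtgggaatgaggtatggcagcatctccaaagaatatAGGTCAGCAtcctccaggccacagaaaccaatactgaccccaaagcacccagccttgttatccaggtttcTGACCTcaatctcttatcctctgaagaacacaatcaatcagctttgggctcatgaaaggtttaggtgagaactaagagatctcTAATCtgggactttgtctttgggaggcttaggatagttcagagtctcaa
Pde6h, chr6:136954273-136954522, plus strand: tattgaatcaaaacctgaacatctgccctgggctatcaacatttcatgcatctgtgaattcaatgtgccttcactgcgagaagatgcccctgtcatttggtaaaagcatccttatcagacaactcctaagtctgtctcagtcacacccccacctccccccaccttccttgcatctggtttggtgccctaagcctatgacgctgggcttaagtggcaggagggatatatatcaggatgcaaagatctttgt
Arr3, chrX:100605247-100605496, plus strand: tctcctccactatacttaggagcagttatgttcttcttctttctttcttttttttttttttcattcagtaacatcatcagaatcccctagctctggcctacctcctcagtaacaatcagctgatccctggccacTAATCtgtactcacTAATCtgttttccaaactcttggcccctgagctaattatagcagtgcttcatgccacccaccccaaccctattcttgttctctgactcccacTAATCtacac
Kcne2, chr16:92292139-92292388, plus strand: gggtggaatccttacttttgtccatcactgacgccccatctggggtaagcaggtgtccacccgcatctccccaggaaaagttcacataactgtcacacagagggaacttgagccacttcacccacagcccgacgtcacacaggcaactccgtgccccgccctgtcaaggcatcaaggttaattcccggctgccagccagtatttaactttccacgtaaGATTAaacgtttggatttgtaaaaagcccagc
The Opn1sw window held 1 GATTA, 2 AGGTCA and 1 TGCTGA match, and the TGCTGA match overlaps 1 of the AGGTCA matches. Arr3 held 3 GATTA matches, the printed Kcne2 window held 1 and its other window 0, and the Pde6h window held none of these letters. Of all 32851 promoter windows of this length, 19.8% held GATTA, 16.1% TGCTGA and 14.0% AGGTCA, and 3.28% held GATTA 2 or more times. Of the 14 windows of the cone genes, some of which overlap, GATTA was in 7, AGGTCA in 3 and TGCTGA in 1. These are matches of letters, with no binding data in these files.

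All 10 genes are protein-coding in the GENCODE M21 annotation of GRCm38. Opn1sw (chr6:29376671-29388468, minus strand) and Ccdc136 (chr6:29396309-29426994, plus strand) lie 7840 bases apart and point away from each other. Gnb3 (chr6:124834240-124840275) and Pde6h (chr6:136923832-136968865) are on the same chromosome. Gnat2 lies at chr3:108092789-108101432, Pde6c at chr19:38132781-38183958 and Arr3 at chrX:100605497-100618493. Thrb spans chr14:17660261-18038090, Rxrg chr1:167598384-167639623 and Kcne2 chr16:92292389-92298129. The annotated span of Opn1sw overlaps Calu on the opposite strand, and that of Pde6h overlaps Arhgdib on the opposite strand. The printed windows of Opn1sw and Pde6h lie inside these annotated spans. That of Pde6h starts at 136954273, past the end of Arhgdib at 136941899, so the RefSeq transcript that follows it lies outside the overlap. Whether the authors' counting used strand is not given in the sources used here, so reads of such overlapping pairs could be shared.

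Values are the authors' normalized CPM, the reads of a gene relative to a library's total after a scaling between libraries. They are not divided by transcript length, so each gene is compared between samples and not with other genes. Column sums ranged from 719752 to 2277242 and the number of reads behind a value is unknown. In MEF, 8 fibroblast markers summed to 8330.4 to 9914 CPM. In rods, 10 rod markers summed to 2674 to 2785 CPM at P2 and 338935 to 519972 CPM at P28. In CiPC the rod markers summed to 248 to 252 CPM, against 3925 to 4227 CPM in P5 rods. The 9 cone markers, 5 of them among the genes described here, summed to 5.03 to 6.59 CPM in MEF, 22.0 to 23.8 in CiPC, 96.8 to 105 in P5 rods and 807 to 826 in P2 rods. Of these, Opn1mw (the middle-wave opsin), Pde6h, Arr3 and Cnga3 (a subunit of the cone channel) were under 1 CPM in every CiPC library. P10 replicate 4 and P14 replicate 3 stood apart from their groups. Their mitochondrial shares were 3.87% and 3.95%, against 11.8% to 19.1% and 7.92% to 10.6% in the others, and their rod marker sums were 33048 and 74839 CPM, the lowest of each group. Counts of calls in the steps between ages that involve P10 or P14 are given with and without them. In these bulk samples, fewer cells of a type and less RNA per cell cannot be told apart.

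**Figure D1:**
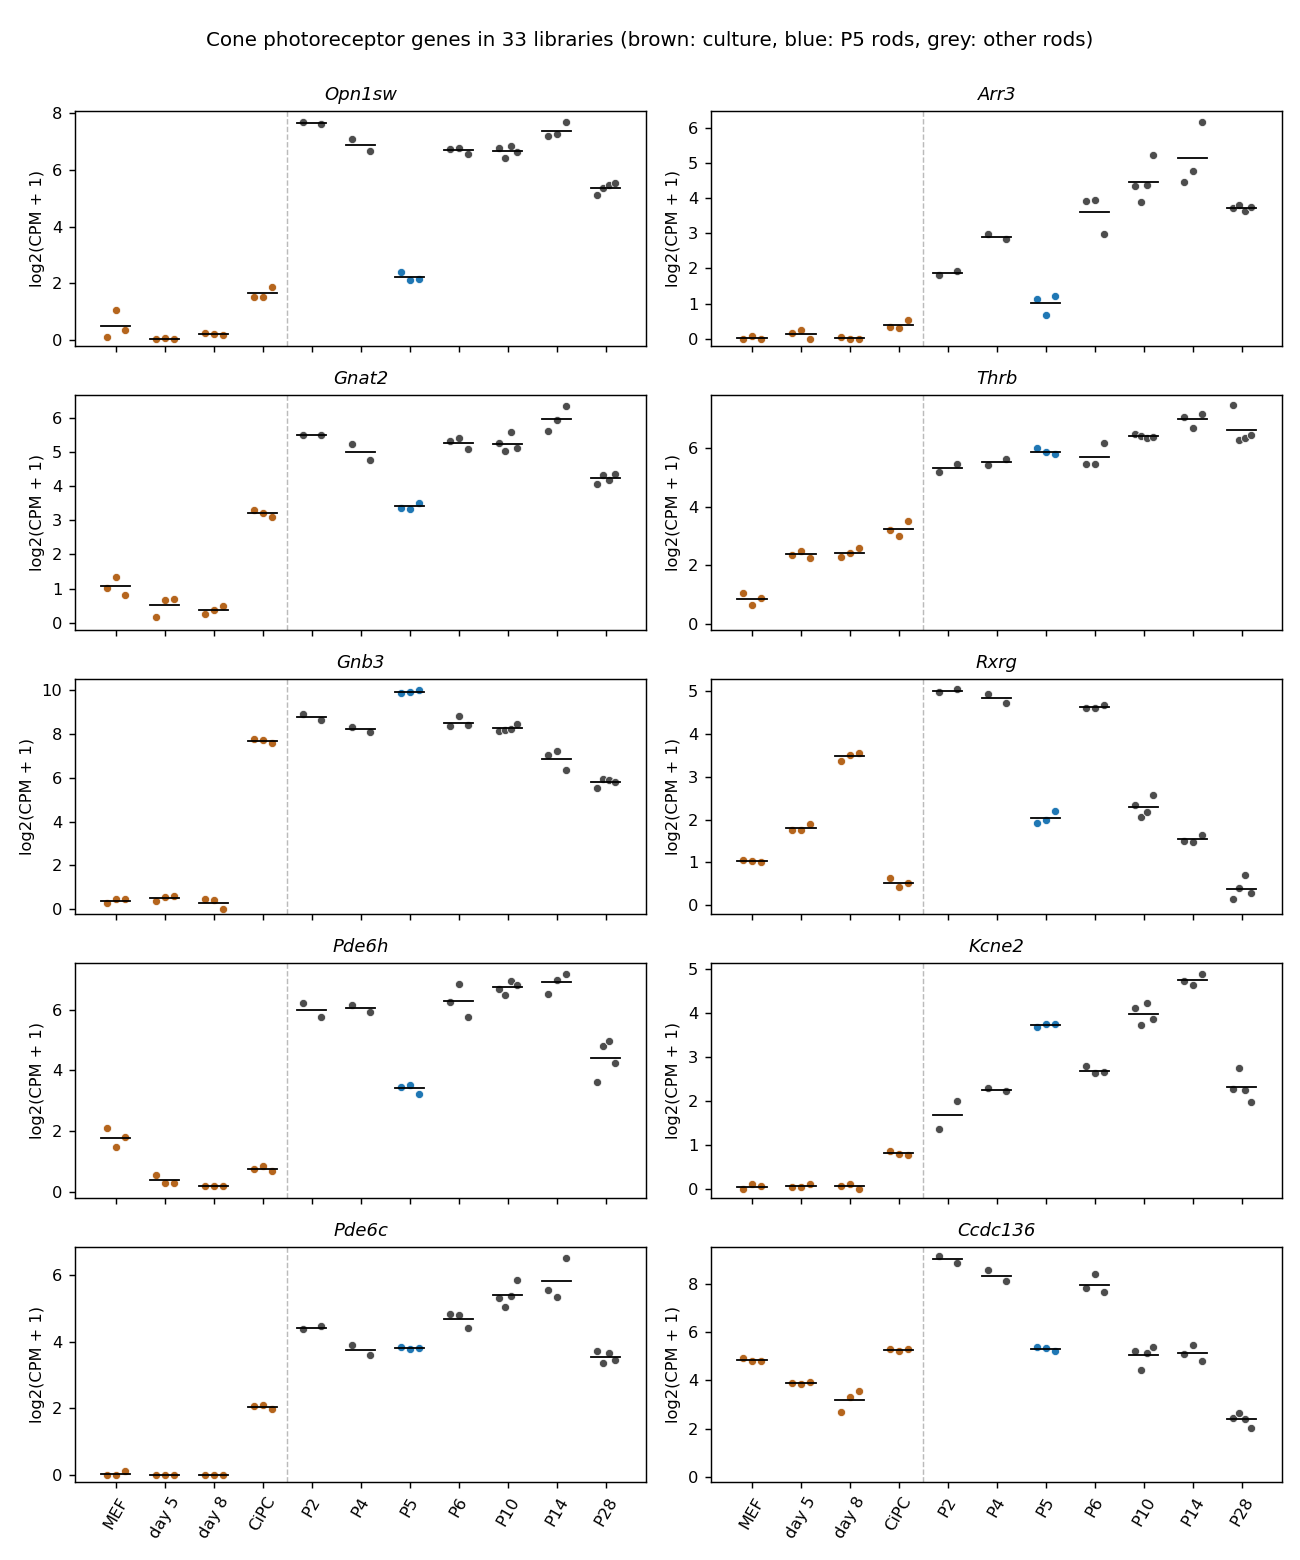
Levels of the 10 cone genes as log2(CPM + 1) on the vertical axes, with the 11 groups along the horizontal axis. Each point is 1 library and each bar the mean of the log2 values. All genes but Ccdc136, Rxrg and Thrb sit below 4 CPM in every MEF, day 5 and day 8 library, Gnb3 reaches 192 to 214 CPM in CiPC, and P5 rods stand below P4 and P6 rods in 6 of the 10 panels.

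Differences were tested on log2(CPM + 1) with limma across all genes. A call needed a Benjamini-Hochberg adjusted p under 0.05 over all genes tested and a 2-fold or larger difference on the log2(CPM + 1) scale, which understates changes of genes near 0. Log2 changes are given with their standard error. Arr3 did not pass the filter of 1 CPM in 3 libraries in the fit of cultured cells and P5 rods. Kcne2 passed there only through P5 rods, and Opn1sw, Gnat2, Gnb3 and Pde6c only with the help of CiPC and P5 rods, where they are high, so counts over the tested genes are no support in themselves.

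Thrb and Pde6h changed between MEF and day 5, and Rxrg between day 5 and day 8. At day 5, 1 of 9 tested genes was higher than in MEF and 1 lower, while of all 14798 genes tested 26.2% were called, 13.6% higher and 12.6% lower. Thrb, the thyroid hormone receptor, measured 1.07, 0.550 and 0.838 CPM in MEF and 4.11, 4.67 and 3.80 CPM at day 5. All day 5 libraries lay above all MEF, a log2 change of 1.52 ± 0.14 (limma, adjusted p = 6.11e-08). Pde6h, the inhibitory subunit of the cone phosphodiesterase, measured 3.26, 1.76 and 2.49 CPM in MEF and 0.457, 0.227 and 0.212 CPM at day 5, a fall of 1.41 ± 0.14 on the log2 scale (adjusted p = 1.22e-07). Arhgdib, which overlaps Pde6h, measured 172 CPM in MEF and 128 at day 5, and it stayed at or below 1.56 CPM in all rod groups by mean. Its share in the Pde6h values of MEF was not tested.

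From day 5 to day 8, Rxrg was the 1 called gene, while of all genes 5.95% were called, 3.24% higher and 2.71% lower. This retinoid X receptor measured 1.09, 1.05 and 1.02 CPM in MEF, 2.38, 2.37 and 2.69 at day 5, 9.27, 10.4 and 10.6 at day 8 and 0.547, 0.350 and 0.432 in CiPC. The groups did not overlap at any step, with a rise of 1.67 ± 0.10 from day 5 to day 8 (adjusted p = 1.45e-09) and a fall of 2.95 ± 0.10 from day 8 to CiPC (adjusted p = 9.88e-14). Rxrg is also expressed outside the eye, in muscle among other tissues. The 6 adipocyte markers summed to 1402 to 1432 CPM at day 5, 4816 to 5281 at day 8 and 21.0 to 24.3 in CiPC, with all 6 above 1 CPM in some library of day 8. The 8 skeletal muscle markers summed to 395 to 410.0, 332 to 398 and 4.68 to 5.73 CPM in the same groups. The part of such cells in the Rxrg level was not tested.

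In CiPC, 5 of 9 tested cone genes were higher than in MEF and 1 was lower, while of all genes 31.4% were called, 15.4% higher and 16.0% lower. Of all calls 49.1% were higher, and 63.1% with all columns rescaled to the same sum. With no filter on low values, the same numbers were called. The transducin beta subunit Gnb3 stood far above the others in the size of its change. The 4 further genes that rose encode the transducin alpha subunit (Gnat2), the catalytic phosphodiesterase subunit (Pde6c), the short-wave opsin (Opn1sw) and the hormone receptor (Thrb). The median log2 change over all 10 genes was 0.95, beside -0.028 over all genes tested.

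Opn1sw measured 0.0671, 1.08 and 0.286 CPM in MEF and 1.86, 1.89 and 2.70 in CiPC. The CiPC libraries lay above all MEF libraries, of which replicate 2 was the highest. The log2 change was 1.14 ± 0.18 (adjusted p = 2.93e-05), and without MEF replicate 1 it was 0.94, under the fold threshold. Calu, which overlaps Opn1sw, ran the other way, at 1753 CPM in MEF and 613 in CiPC.

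Gnat2, the alpha subunit that couples opsin to the phosphodiesterase, measured 1.04, 1.55 and 0.766 CPM in MEF, 0.190, 0.294 and 0.407 at day 8 and 8.93, 8.31 and 7.56 after reprogramming, with CiPC above all others. It rose by 2.14 ± 0.15 from MEF to CiPC (adjusted p = 1.92e-09). Gnb3, the beta subunit of cone transducin, which ON bipolar cells also use, measured 0.214, 0.372 and 0.372 CPM in MEF, 0.410, 0.345 and 0 in day 8 libraries and 214, 205 and 192 in CiPC. Its mean in CiPC was 638 times that in MEF, a log2 change of 7.28 ± 0.12 (adjusted p = 3.88e-17). Bipolar cell markers moved with it, at 74.8 to 82.7 CPM in sum in MEF, 39.5 to 45.6 at day 8 and 345 to 407 in CiPC, where 7 of 10 were called higher than in MEF. Grm6, the glutamate receptor that defines ON bipolar cells, measured 0.0828 CPM in MEF and 35.6 in CiPC. The part of such cells in the Gnb3 level was not tested.

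Pde6c, the catalytic subunit, was listed at 0 in 2 MEF libraries and in all day 5 and day 8 libraries, and at 0.0851 CPM in MEF replicate 3. It measured 3.20, 3.26 and 2.93 CPM in CiPC, a rise of 2.01 ± 0.074 over MEF (adjusted p = 6.92e-13). Its inhibitory partner Pde6h measured 0.674, 0.806 and 0.614 CPM in CiPC, below all MEF libraries, with a log2 change of -1.02 ± 0.14 (adjusted p = 4.44e-06). Arhgdib, which overlaps it, was lower in CiPC as well, at 172 CPM in MEF and 9.79 in CiPC, and its part in the Pde6h values was not tested. The Pde6h call ends without MEF replicate 1 (-0.87), without CiPC replicate 3 (-0.99) and with all columns rescaled to the same sum (-0.87).

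Arr3, the cone arrestin, was listed at 0, 0.0568 and 0 CPM in MEF and 0.268, 0.242 and 0.442 in CiPC, and was not tested. Thrb measured 8.24, 7.04 and 10.5 CPM in CiPC, above MEF by 2.39 ± 0.14 (adjusted p = 1.82e-10), while its step from day 8 was 0.80 ± 0.14 and under the fold threshold. Rxrg in CiPC was -0.51 ± 0.10 from MEF and not called. Kcne2, an accessory subunit of potassium channels, measured 0, 0.0784 and 0.0421 CPM in MEF and 0.820, 0.730 and 0.714 in CiPC, without overlap. Its change of 0.75 ± 0.074 was under the fold threshold with a pseudocount of 1 and over it with 0.5 (1.22). Ccdc136, a coiled-coil protein, measured 29.6, 26.7 and 27.1 CPM in MEF, 5.52, 9.07 and 11.0 at day 8 and 38.7, 36.3 and 38.5 in CiPC. It was called between day 8 and CiPC (2.07 ± 0.15, adjusted p = 3.19e-09) but not between MEF and CiPC (0.43 ± 0.15). From day 8 to CiPC, 5 of 9 tested genes were higher and 1 lower, while of all genes 29.9% were called, 14.3% higher and 15.6% lower. Of those calls 47.8% were higher, and 60.4% on rescaled columns.

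Other genes of the cone cascade and its regulators were counted from lists. Of 8 further cone genes 7 were tested, and 4 rose between MEF and CiPC: the exchanger Slc24a2 (1.85 ± 0.23), the transducin gamma subunit Gngt2 (1.60 ± 0.14), the channel subunit Cngb3 (1.53 ± 0.10) and the proton channel Otop3 (1.42 ± 0.093). Of 11 factors that specify or pattern cones, 7 of 10 tested were higher, led by Crx (6.09 ± 0.13), Otx2 (5.93 ± 0.088), Rorb (5.34 ± 0.12) and Neurod1 (5.06 ± 0.084). All of these factors also act in rods or their precursors. Of 5 rod factors that hold cone genes low, 4 were higher as well: Samd7 (5.27 ± 0.11), Nrl (4.68 ± 0.10), Samd11 (4.66 ± 0.15) and Nr2e3 (4.35 ± 0.12). Of 7 rod counterparts of the cone genes, 6 were higher, among them the rod arrestin Sag (4.96 ± 0.11) and Pde6g (4.87 ± 0.10), the inhibitory subunit of the rod phosphodiesterase.

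Genes around Thrb signalling moved in both directions. Of 13 genes of the thyroid hormone pathway, 6 rose from MEF to CiPC and 1 fell. Crym, a protein that binds thyroid hormone in the cytosol, measured 1.84 CPM by mean in MEF, 0.598 in day 8 libraries and 3113 in CiPC, a rise of 10.10 ± 0.11 (adjusted p = 5.47e-19). That level was also above P5 rods (80.0 CPM) by 5.27 ± 0.11. The corepressor Hr rose by 5.30 ± 0.16 and Dio2, the enzyme that activates the hormone, by 2.67 ± 0.10. Slc16a10, a transporter of the hormone, fell by 1.37 ± 0.21. Markers of Mueller glia and progenitors summed to 2274 to 2329.7 CPM in CiPC, against 89.1 to 94.0 in MEF and 646 to 695 in P5 rods, and their part in these levels was not tested.

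**Figure D2:**
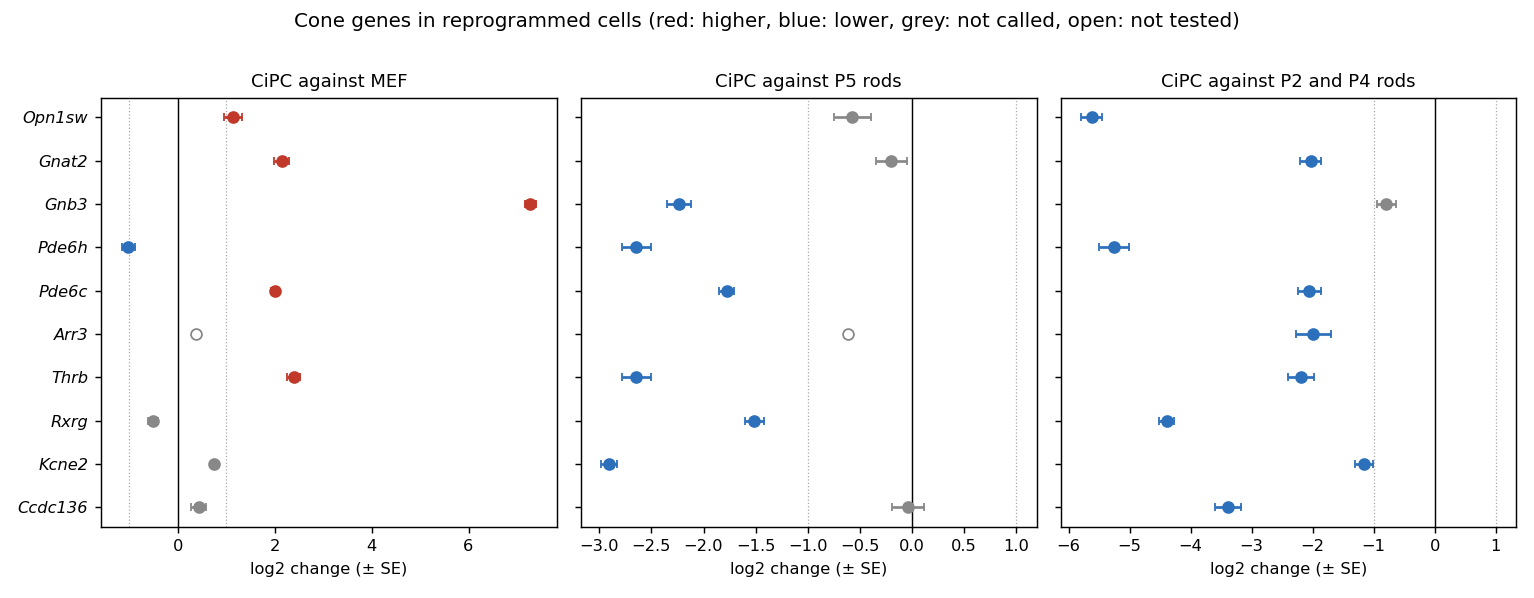
Log2 changes of the 10 cone genes, with bars for the standard error, in CiPC against MEF, against P5 rods and against P2 and P4 rods. Dotted lines mark a fold of 2; Gnb3 has the largest rise over MEF (7.28), and no gene is called higher in CiPC than in either set of rods.

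Against P5 rods, the rods deposited with the cultured cells, 0 of 9 tested cone genes were higher in CiPC and 6 were lower, while of all genes 39.7% were called, 22.8% higher and 16.9% lower. The higher share among calls was 57.4%, and 46.8% under quantile normalization. The median over all 10 genes was -1.65, beside 0 over all genes. The falls covered the phosphodiesterase, both nuclear receptors, Gnb3 and Kcne2. Gnb3 measured 930.1, 948 and 1016 CPM in P5 rods, so that the CiPC mean was 21.1% of it (-2.24 ± 0.12, adjusted p = 3.61e-11). Pde6c measured 13.5, 12.9 and 13.1 CPM and Pde6h 10.0, 10.6 and 8.35 CPM in P5 rods, with changes in CiPC of -1.78 ± 0.074 and -2.64 ± 0.14. Thrb, at 62.9, 57.4 and 54.7 CPM in P5 rods, differed by -2.64 ± 0.14, and Rxrg, at 2.80, 2.97 and 3.59 CPM, by -1.51 ± 0.10. Kcne2 measured 11.7, 12.3 and 12.4 CPM in P5 rods and differed by -2.91 ± 0.074. The CiPC and P5 values of each of these 6 genes did not overlap. As the genes were picked by their calls, this is no further support.

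No call was made for 3 tested genes. Gnat2 measured 9.36, 9.05 and 10.4 CPM in P5 rods, beside 8.93, 8.31 and 7.56 in CiPC, so that the ranges did not overlap. The change was -0.20 ± 0.15, with a 95% interval of -0.51 to 0.12. Ccdc136 measured 40.8, 39.3 and 36.5 CPM in P5 rods and overlapped CiPC, with a change of -0.036 ± 0.15 and an interval of -0.36 to 0.28. Opn1sw measured 4.23, 3.33 and 3.42 CPM in P5 rods, above all CiPC libraries. Its change was -0.57 ± 0.18 (adjusted p = 0.00864, interval -0.96 to -0.18), under the fold threshold. Arr3 was not tested, at 1.17, 0.608 and 1.31 CPM in P5 rods. P5 rods themselves exceeded MEF in 7 of 9 tested genes, all but Rxrg and Ccdc136, and were called lower in 0, while of all genes 52.5% were called, 23.3% higher and 29.2% lower. The share of higher genes among these calls was 44.5%, and 58.3% on rescaled columns. Rxrg lay at the threshold there (1.00 ± 0.10, and 1.21 with a pseudocount of 0.5, which is called) and Ccdc136 at 0.47 ± 0.15.

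Against the rods of P2 and P4, which come from the older series, 9 of 10 genes were lower in CiPC and 0 higher, while of 15248 genes tested 36.2% were called, 18.7% higher and 17.4% lower. Series and cell type cannot be told apart in this comparison. The changes ran from -5.62 ± 0.17 for Opn1sw and -5.26 ± 0.25 for Pde6h to -1.15 ± 0.15 for Kcne2, which is no longer called without P2 replicate 2 or against P2 rods alone (-0.87). Gnb3, at -0.79 ± 0.16, was not called, but it was against P2 rods alone (-1.07) and under quantile normalization (-1.06), with 471 and 388 CPM at P2, 319 and 266 at P4 and 214, 205 and 192 in CiPC. Rod markers were lower in CiPC too, with 10 of 10 called lower.

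P5 rods carried less of several cone transcripts than rods a day younger or older. This comparison was added after the values had been seen. Against P4 and P6 rods together, 6 of 10 cone genes were lower in P5 rods and 2 higher, while of all genes 19.1% were called, 7.35% higher and 11.7% lower. P5 rods are of the newer series and P4 and P6 rods of the older one, so age, series and sort cannot be told apart.

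Opn1sw measured 135 and 101 CPM at P4, 4.23, 3.33 and 3.42 at P5 and 106, 108 and 94.5 at P6. The P5 mean was 3.31% of that of P4 and P6 (-4.58 ± 0.17, adjusted p = 7.74e-18). Its neighbour Ccdc136 measured 377 and 274 at P4, 40.8, 39.3 and 36.5 at P5 and 223, 337 and 202 at P6 (-2.83 ± 0.20). Pde6h was lower by a similar amount, at 71.0 and 59.4, 10.0, 10.6 and 8.35 and 75.9, 114 and 53.1 CPM (-2.76 ± 0.24). Rxrg (-2.69 ± 0.12), Arr3 (-2.25 ± 0.28) and Gnat2 (-1.73 ± 0.17) completed the lower genes. In each of the 6 genes no P5 library reached a P4 or P6 library, which is no further support for genes picked by their calls.

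The opposite held for Gnb3 and Kcne2. Gnb3 measured 319 and 266 CPM at P4, 930.1, 948 and 1016 at P5 and 322, 439.5 and 331 at P6, a difference of 1.57 ± 0.15 (adjusted p = 2.37e-09). Kcne2 was higher by 1.25 ± 0.14, from 3.88 and 3.64 and 5.88, 5.18 and 5.28 CPM at P4 and P6. Bipolar cell markers were higher in P5 rods as well, with sums of 281 to 296 CPM at P4, 1073 to 1131 at P5 and 474 to 571 at P6, and 7 of 10 called higher. Grm6 measured 1.46, 215 and 22.8 CPM at these ages. Markers of choroid plexus and ciliary epithelium, which express Kcne2, ran the other way. They summed to 1059 to 1130 CPM at P4, 612 to 620 at P5 and 1011 to 1257 at P6. That list includes Otx2, while its members Ttr, Folr1 and Clic6 were under 1 CPM in every P4 and P5 library. Markers of Mueller glia and progenitors were lower in P5 rods, with 8 of 10 called lower, and the part of other retinal cells in the cone gene levels was not tested. Thrb (0.27 ± 0.20, 95% interval -0.15 to 0.69) and Pde6c (-0.40 ± 0.19, interval -0.78 to -0.019) were not called. Of 8 further cone genes 3 were lower, Cngb3 (-3.44 ± 0.13), Gulo (-2.23 ± 0.14) and Gngt2 (-2.14 ± 0.19), and 0 higher.

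**Figure D3:**
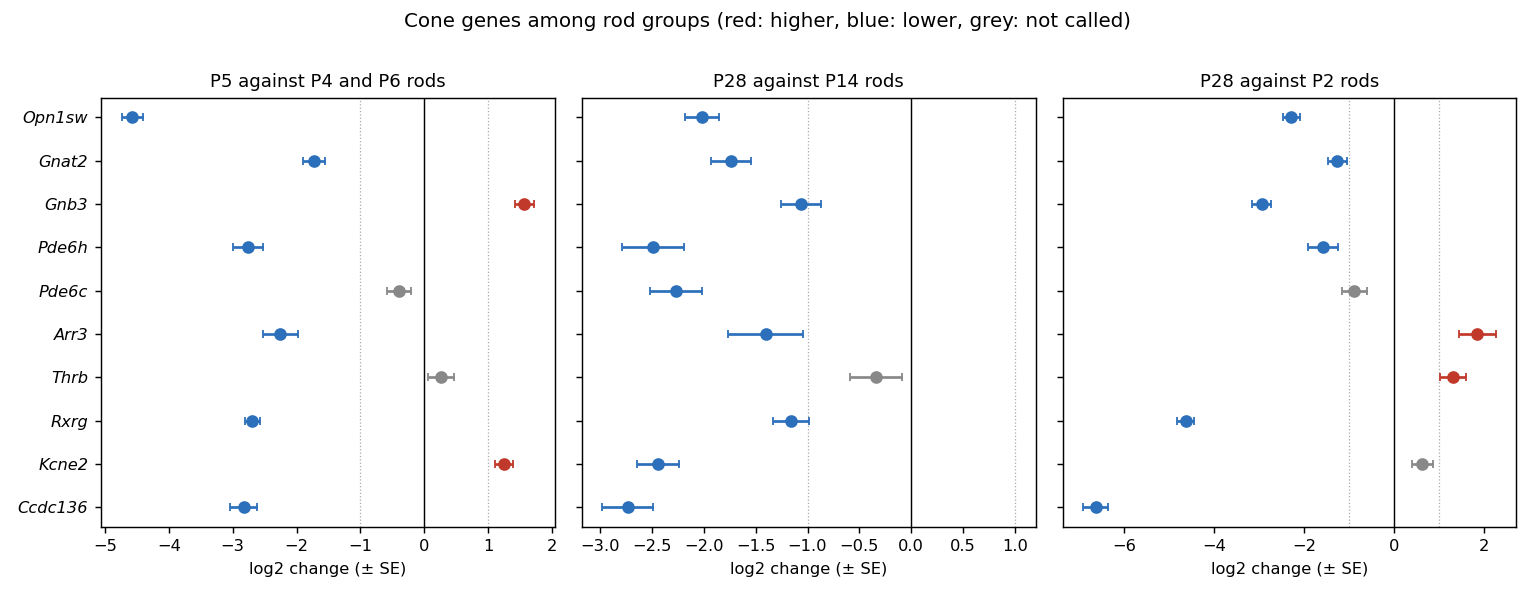
Log2 changes of the 10 cone genes, with bars for the standard error, in P5 rods against P4 and P6 rods, in P28 against P14 rods and in P28 against P2 rods. Dotted lines mark a fold of 2. In the middle panel every gene but Thrb lies past the lower line, while the outer panels hold genes on both sides of 0.

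Among the rod ages other than P5, Ccdc136 and Rxrg fell and Kcne2 rose from P6 to P10, Gnb3 fell from P10 to P14, and 9 of the 10 genes fell from P14 to P28. From P2 and P4 to P6, limma called 0 of 10 genes, while of 13884 genes tested 2.96% were called, 1.02% higher and 1.94% lower. The nearest was Arr3, which measured 2.52 and 2.83 CPM at P2, 6.87 and 6.08 at P4 and 14.0, 14.4 and 6.91 at P6 (1.22 ± 0.36, limma adjusted p = 0.0568). Arr3 was called with a pseudocount of 0.5 (1.32) or 0.1 (1.40), under quantile normalization (1.39), in a fit of these groups alone (adjusted p = 0.012) and without P6 replicate 3 (1.54). Kcne2 (0.72 ± 0.20, adjusted p = 0.0464) and Opn1sw (-0.57 ± 0.16, adjusted p = 0.0481) were under the fold threshold. At an unadjusted limma p under 0.05, 5 of the 10 genes differed. The share of all genes at that looser threshold was not counted, so this number is no result in itself.

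From P6 to P10, 2 of 10 genes were lower and 1 higher, while of all genes 15.0% were called, 7.07% higher and 7.92% lower. Of these calls 47.2% were higher, and 15.2% on rescaled columns. Ccdc136 measured 223, 337 and 202 CPM at P6 and 36.5, 20.4, 34.5 and 40.7 at P10, a fall of 2.91 ± 0.25 (adjusted p = 2.27e-07). Rxrg measured 23.2, 23.3 and 24.5 CPM at P6 and 4.10, 3.19, 3.48 and 4.91 at P10, a fall of 2.34 ± 0.17 (adjusted p = 4.83e-08). Kcne2 rose from 5.88, 5.18 and 5.28 CPM to 16.1, 12.1, 17.7 and 13.6, by 1.29 ± 0.20, a call that ends with all columns rescaled to the same sum (0.88). From P10 to P14, Gnb3 was the 1 gene called, lower, while of all genes 3.74% were called, 1.04% higher and 2.70% lower. Of the calls in this step 27.7% were higher, with 13.7% on rescaled columns and 40.9% under quantile normalization. Gnb3 measured 276, 286, 300.0 and 344 CPM at P10 and 131, 145 and 81.2 at P14 (-1.37 ± 0.19, adjusted p = 0.000415). Without P10 replicate 4 and P14 replicate 3, the same cone genes were called, 3 at P10 against P6 and 1 at P14 against P10. Over all genes, 2969 and 308 were called there. Bipolar markers summed to 475 to 595 CPM at P10 and 336 to 411 at P14, and 4 of 10 were called lower in that step.

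Between P14 and P28, 9 of 10 cone genes fell and 0 rose, while of all genes 21.1% were called, 4.22% higher and 16.9% lower. The higher share of these calls became 1.32% on rescaled columns, 32.8% with median-of-ratios scaling and 39.9% under quantile normalization. The median over the 10 genes was -1.88, beside -0.18 over all genes. With all columns rescaled to the same sum, the median of all genes was -0.64 and all 10 cone genes were called lower. Opn1sw measured 147, 152 and 205 CPM at P14 and 33.5, 39.9, 43.5 and 45.9 at P28, a fall of 2.01 ± 0.16 (adjusted p = 5.11e-07). Gnat2 fell by 1.74 ± 0.19, from 47.7, 60.5 and 80.8 CPM to 15.8, 19.0, 17.0 and 19.5. Pde6h fell by 2.49 ± 0.30, from 90.9, 126 and 145 to 11.4, 27.1, 30.3 and 18.0 CPM. In these 3 genes every P14 library lay above every P28 library, which is no further support for genes picked by their calls.

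Pde6c measured 46.4, 40.0 and 90.6 CPM at P14 and 12.2, 9.34, 11.6 and 9.87 at P28 (-2.27 ± 0.25). Kcne2 went from 25.4, 23.9 and 28.5 to 3.84, 5.72, 3.71 and 2.90 CPM (-2.44 ± 0.20) and Ccdc136 from 33.1, 42.8 and 26.9 to 4.44, 5.21, 4.35 and 3.11 (-2.73 ± 0.25). Rxrg, already near 2 CPM at P14, fell by 1.16 ± 0.17 to 0.113, 0.313, 0.620 and 0.213 CPM, a call that ends under quantile normalization (-0.49, adjusted p = 0.0737). Gnb3 was close to the threshold (-1.06 ± 0.19) and lost its call without P14 replicate 1 (-0.97), P14 replicate 2 (-0.90) or P28 replicate 1 (-0.97) and with median-of-ratios scaling (-0.92).

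The call of Arr3 rested on 1 library. Arr3 measured 21.1, 26.4 and 71.1 CPM at P14 and 12.2, 13.1, 11.5 and 12.5 at P28, a change of -1.40 ± 0.36 (adjusted p = 0.00523). Without P14 replicate 3 the change was -0.89 (limma adjusted p = 0.0346), under the fold threshold and so not called. That library held the highest P14 value in 8 of the 10 genes, and P10 replicate 4 held the highest P10 value in 5, among them Arr3 (19.3, 13.9, 19.7 and 36.4 CPM) and Pde6c (38.8, 31.7, 40.7 and 57.3 CPM). Cone markers summed to 709 CPM in P14 replicate 3, beside 438 and 481 in the other two. Without both libraries, 8 of the 10 genes were still lower at P28 than at P14.

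Thrb stood apart, with 134, 103 and 143 CPM at P14 and 177, 76.4, 80.1 and 87.5 at P28 and overlapping groups (-0.34 ± 0.25, 95% interval -0.87 to 0.19). With columns rescaled it was -1.05 and called. Markers of other retinal cells fell between these ages too. The 10 markers of Mueller glia and progenitors were all called lower, as were 9 of 10 bipolar markers and 6 of 7 of horizontal, amacrine and ganglion cells. Their sums were 735 to 805, 336 to 411 and 84.1 to 118 CPM at P14 and 159 to 369.7, 264 to 418 and 49.0 to 62.7 CPM at P28. The part of cones or other cells collected with the rods in these values was not tested.

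Over the whole span, 6 of 10 cone genes were lower at P28 than at P2 and 2 higher, while of all genes 50.7% were called, 19.7% higher and 31.0% lower. The higher share of the calls was 38.9%, with 6.94% on rescaled columns and 51.3% under quantile normalization. Ccdc136, at 575 and 461 CPM at P2, fell by 6.63 ± 0.28. Rxrg, at 30.6 and 31.8 CPM at P2, fell by 4.63 ± 0.19. Gnb3 (-2.94 ± 0.22), Opn1sw (-2.28 ± 0.18), Pde6h (-1.59 ± 0.33) and Gnat2 (-1.26 ± 0.21) were lower too. Arr3 was higher by 1.86 ± 0.41 and Thrb by 1.31 ± 0.28, from 35.8 and 43.0 CPM at P2. Both of these rises depend on the scaling. With all columns rescaled to the same sum, the median change of all genes went from -0.29 to -1.39, Arr3 measured 0.58 (adjusted p = 0.316) and Thrb turned to -0.16 (adjusted p = 0.659), which remain above that median. Pde6c (-0.88 ± 0.28) and Kcne2 (0.63 ± 0.23) were not called. On the rescaled values Pde6c was called at -2.24, which gave 7 lower and 0 higher cone genes.

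The courses in between were of several kinds. Opn1sw, Gnb3, Rxrg and Ccdc136 had their highest mean among these ages at P2, and Gnat2, Pde6h, Pde6c, Arr3, Thrb and Kcne2 at P14. For Opn1sw the means were 201, 118, 103, 102, 168 and 40.7 CPM in order of age, and the ranges at P2 and P14 overlapped. For Arr3 they were 2.68, 6.48, 11.8, 22.3, 39.5 and 12.3 CPM. P14 replicate 3, which stood apart, raised some of the P14 means. For Arr3 it held 71.1 CPM beside 21.1 and 26.4, for Pde6c 90.6 beside 46.4 and 40.0, for Pde6h 145 beside 90.9 and 126. In these genes the ranges at P14 and P10 overlapped. Opn1mw was listed at 0 in both P2 libraries and measured 15.3 CPM at P10, 42.1 at P14 and 9.40 at P28. Of the other 7 further cone genes, all 7 were lower at P28 than at P2, led by Gngt2 (-6.60 ± 0.26), Otop3 (-4.40 ± 0.25) and Cngb3 (-4.12 ± 0.19). Of 11 cone-specifying factors, 8 were lower, among them Prdm1 (-6.48 ± 0.52) and Onecut2 (-5.30 ± 0.25), and 2 higher, Rora (2.30 ± 0.30) and Crx (1.44 ± 0.20).

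Of the rod counterparts, all 7 were called higher at P28 than at P2, and all 7 were higher at P10 than at P6, when Gnat1 rose by 6.82 ± 0.44, Pde6a by 4.62 ± 0.36 and Pde6g by 3.44 ± 0.51. The means of Gnat1, the rod transducin alpha subunit, were 9.07 CPM at P2, 5990.4 at P10 and 69103 at P28, while its cone counterpart Gnat2 had means of 43.9, 37.3 and 17.8 CPM. Between P14 and P28, 5 of 7 were higher and 0 lower, with Gnat1 at 1.86 ± 0.44 and Pde6a at 1.78 ± 0.36. Of 5 rod factors that hold cone genes low, Esrrb (1.43 ± 0.18) and Nrl (1.22 ± 0.42) were higher in that step and the other 3 were not called. Of 13 genes of the thyroid hormone pathway, 4 were lower and 0 higher, with Dio2 at -2.51 ± 0.31 and Crym at -2.48 ± 0.32.

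**Figure D4:**
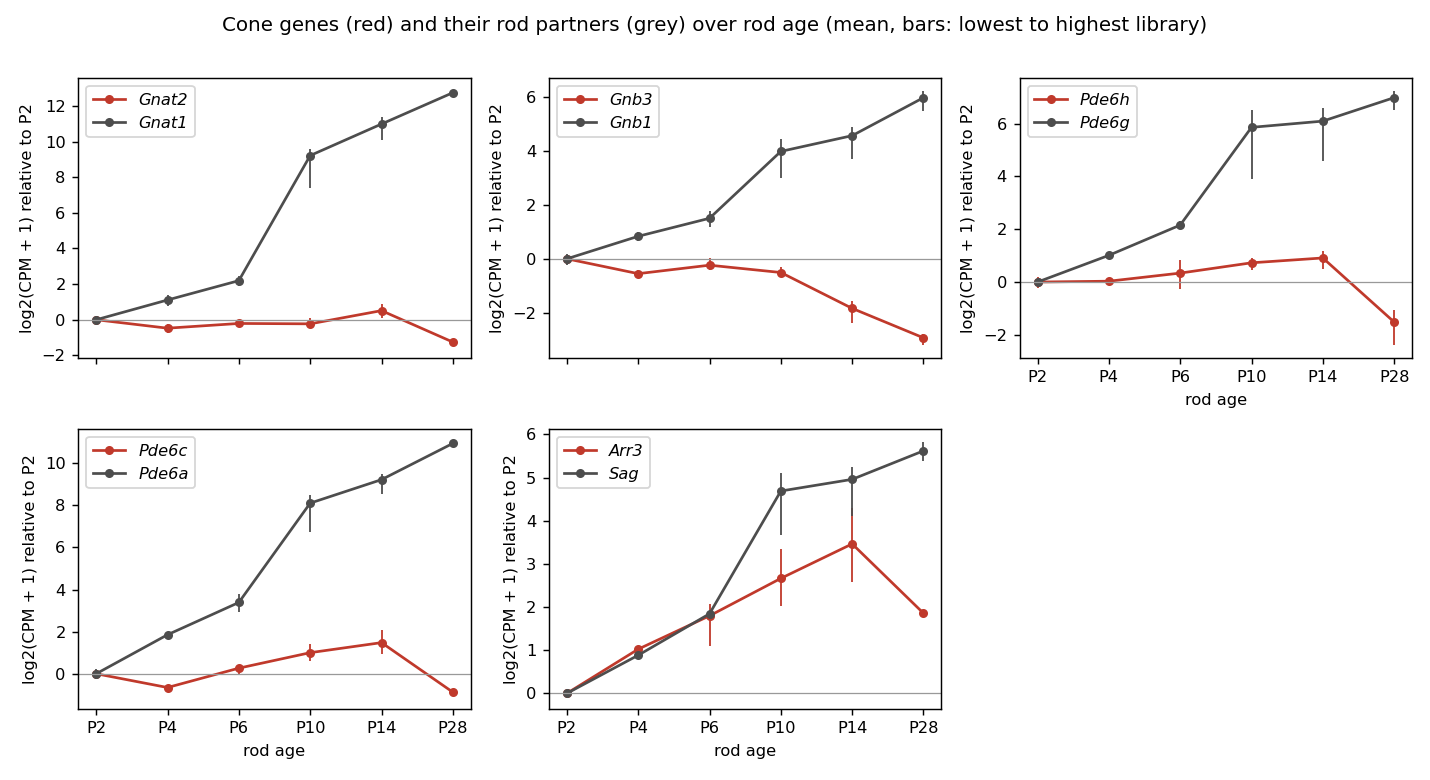
A set of 5 cone genes in red and their rod counterparts in grey at the 6 rod ages other than P5, as log2(CPM + 1) relative to the P2 mean. Points are log2 of the group mean plus 1, vertical lines run from the lowest to the highest library, and ages are evenly spaced on the axis. Each of the 5 rod genes has its highest mean at P28, while each of the 5 cone genes has a lower mean at P28 than at P14.

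Among themselves, the cone genes did not follow a single course over the 11 group means. Opn1sw ran with Pde6h (Pearson r = 0.965) and Gnat2 (r = 0.957), and Gnat2 with Pde6c (r = 0.969). Thrb ran with Pde6c (r = 0.936). Rxrg ran with few, at r = 0.0483 to Kcne2, 0.118 to Arr3 and 0.452 to Opn1sw, and its highest value was 0.774, to Ccdc136. These correlations describe 11 means that share libraries and scaling and carry no test. Among all genes with a group mean of at least 10 CPM, the course of Gnb3 was most like those of Vash1 (r = 0.988), Chrna3 (r = 0.987) and Hap1 (r = 0.987). Gnat2 and Pde6c both had Rpgrip1, a protein of the photoreceptor connecting cilium, among their 3 nearest (r = 0.979 and 0.972). The others were Rph3a and Plekhm3 (each r = 0.979) for Gnat2, and Dscam (r = 0.971) and Catsper2 (r = 0.969) for Pde6c. Opn1sw was nearest to Olfr784 (r = 0.983) and Rxrg to Rreb1 (r = 0.984).

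In order of level over the 11 groups, neighbouring groups overlapped in range at 2 of 10 steps for Rxrg, 3 for Gnat2, 4 each for Opn1sw, Pde6h and Arr3, 5 each for Gnb3, Kcne2 and Ccdc136, and 6 each for Pde6c and Thrb. CiPC lay between MEF and P28 rods by mean for Opn1sw, Gnat2, Pde6c, Arr3, Thrb and Kcne2. It was below MEF for Pde6h, and for Rxrg it lay below MEF and above P28 rods, at 0.443 CPM against 0.315. Gnb3 and Ccdc136 were above P28 rods in CiPC, at 204 CPM against 55.2 and 37.8 CPM against 4.28. No test was made of these levels across the older and the newer series.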

How the data were processed

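RNA-seq libraries were analysed from the authors' deposited table of normalized CPM, a scaled signal per gene and library; kallisto was used, per the submitters' processing notes. Its version, index and genome build, the use of strand and the scaling were not given in the sources used here. The table held 33 value columns, all used, and 15289 genes, of which 99.05% matched GENCODE M21 identifiers for positions. Read depth is unknown, and no interval from counting could be given. P3 rods were not analysed here.

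The members and lists were chosen with earlier results of these data known. All 10 cone genes are given in each comparison. Of each other list, the text names up to 4 genes with the largest change past the threshold and any that moved against them. Values were tested as log2(CPM + 1) with limma 3.58.1 in R 4.3.3 (group means, variance trend, Benjamini-Hochberg adjustment over all genes tested), after keeping genes with 1 CPM in 3 libraries, or in 2 where P2 and P4 rods entered. Cultured cells with P5 rods, the other rod ages, and all 33 libraries formed 3 separate fits. The test was tested on simulated data. Promoters are RefSeq windows, and motifs were searched on both strands. Alternatives were pseudocount, filter, normalization, fold threshold, variance trend, fewer groups, a replicate block and leaving out each library. Rescaling of columns, the removal of the libraries that stood apart, and the comparison of P5 with P4 and P6 rods were chosen after seeing the data. Some genes of the lists are counted but not reported here by name.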

Additional observations from a re-analysis of the deposited data

Results flagged for a closer look

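Thrb in P28 rods had 1 library far from the others. P28 replicate 1 measured 177.4 CPM, against 76.36 to 87.49 CPM in the other 3 libraries. On the log2(CPM + 1) scale, its gap to the nearest made up 0.839 of the range of the group. Over the 10 cone genes, 20 groups of 4 libraries were examined in this way and 1 stood out, where chance gives about 1 in 20.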

How the results depend on the processing

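Over the single cone genes and all alternatives, 2000 values kept their side of the thresholds. Changes of sign between uncalled values may be among these and were not counted. A further 15 kept the direction but lost the call, and 58 gained one. Many of the gains come from the setting without a fold threshold, which can only add calls. Of called values 1 turned: Thrb at P28 against P2, -0.16 with columns rescaled to the same sum. Genes that were not tested at a setting are left out of these numbers. With a pseudocount of 0.1, 5 cone genes were called at day 5 against MEF, beside 4779 of all 14798 genes tested. Without the fold threshold, 6 cone genes were called at day 5 against MEF and 2 at day 8 against day 5. Of all 14798 genes tested, 11081 and 6856 were called there. At that setting 2 cone genes were called at P6 against P2 and P4, 5 at P10 against P6 and 5 at P14 against P10. Of all 13884 genes tested, 816, 4293 and 1114 were called there. At P6 against P2 and P4, 1 was called with a pseudocount of 0.5 or 0.1 or in a fit of these groups alone, and 2 under quantile normalization. Of all genes in that comparison, 461, 332, 449 and 510 were called at these settings in order. Leaving out each library in turn gave 0 to 1 called genes there, 4 to 6 for CiPC against MEF, 6 in every case for CiPC against day 8, 5 to 6 for CiPC against P5, 8 to 9 for CiPC against P2 and P4 and for P28 against P14, 6 to 8 for P5 against MEF and 8 for P28 against P2, and moved no count in the other 5 comparisons. Kcne2 no longer passes the filter when a P5 library is left out. It then goes untested, which lowers the counts for CiPC against P5 and P5 against MEF. The cause of the other differences was not tested. Read depth is unknown, so values near 0 have no stated precision.

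With the replicate number as a replicate block, 1 call changed, Pde6c at P28 against P2 (-1.02), and 9 genes were called there in place of 8. In none of the 10 comparisons of 1 group with 1 other did every same-numbered pair correlate above 0.1. Per comparison, 0 to 2 libraries correlated best with their own number. Single pairs varied, from -0.446 to 0.581 in P14 against P10. Deviations from the mean of so few libraries depend on each other, so this check cannot settle whether same-numbered libraries were prepared together. The 3 comparisons with a pooled pair of rod ages were not checked for this.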
